A study of Mus musculus with 9 samples.

Results

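Translation factors are the proteins that bring ribosomes, messenger RNA and transfer RNA together. They were followed here through the 66 probe sets, for 45 genes, whose only gene symbol starts with Eif or Eef or is Etf1, Gspt1, Pabpc1 or Tcea1. Symbols starting with Eif4ebp, Eif2s3 or Eif2ak were left out, which removed 10 probe sets, and the array holds 12422 probe sets that are not controls, with 8251 genes named by a single symbol. The rule took in the symbols by spelling, so it also holds Tcea1, an RNA polymerase II elongation factor that acts in transcription, Eef2k, the kinase that inhibits elongation factor 2, Eef1akmt1, a methyltransferase of elongation factor 1A, and Eif4enif1, a transporter of the cap-binding protein.

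The data were 9 arrays of total RNA from both ventricles of female mice at 3 months of age. Every mouse carried a transgene for IGF1R, the receptor of insulin-like growth factor 1. A constitutively active PI3K(p110) transgene was added in 3 mice (IGF1R-caPI3K) and a dominant negative PI3K(p110) transgene in 3 (IGF1R-dnPI3K), and 3 carried the receptor alone (IGF1R). PI3K, phosphoinositide 3-kinase, is an enzyme that signals downstream of this receptor. The labels also name mice with either PI3K transgene alone and littermates without a transgene, which were not analysed here, so no group shows the effect of the IGF1R transgene itself. Which promoter drives the transgenes was not given in the sources used here. The titles give each array a number of its own, read here as 1 mouse, and replicates below are in the order of deposit. The p-values measure the spread between these arrays.

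In eukaryotes, eIF2 carries the initiator transfer RNA to the small ribosomal subunit, eIF3 holds that subunit and its partners together, and the eIF4 proteins bind the cap of the messenger and open its leader. The factors eIF1, eIF1A, eIF5 and eIF5B act in the choice of the start codon and in the joining of the large subunit. Elongation factors then deliver each aminoacyl-tRNA and move the ribosome, and release factors end the chain at a stop codon. PI3K signals through Akt and mTORC1 to several of these factors, mainly by phosphorylation, and in the heart this pathway is known for its part in the growth of cardiomyocytes. The arrays measured RNA, and not the protein, its phosphorylation or the rate of translation.

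Each value is a deposited intensity on a linear scale, with the 2% trimmed mean of every array at about 500. The 9 Y-linked probe sets, which have no target in female mice, reached at most 63.9. Of the 66 member probe sets, 53 of 40 genes had a signal over the 40th percentile on 3 or more arrays and were tested. The other 13 had values of 1.2 to 159.5. They are all those of Eef1b2 (2 probe sets), Eef1g, Eif4enif1, Eif4h and Eif5a, 2 of the 4 of Eif4b, and 1 each of Eif2d, Eif3b, Eif3l, Eif4e and Eif4e2, whose other probe sets were tested. Differences below are on the log2 scale with their SE, from 1 limma fit over all 9 arrays, and pass at a Benjamini-Hochberg adjusted p under 0.05 over the 7898 probe sets tested.

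Some array measures moved with the groups. The highest signal on an array was 28463 to 29544 in IGF1R-caPI3K, 28680 to 51164 in IGF1R-dnPI3K and 22475 to 23040 in IGF1R arrays. The median signal was 175.5 to 186.35 in IGF1R-caPI3K, 161.3 to 185.5 in IGF1R-dnPI3K and 190.55 to 197.25 in IGF1R arrays. Bright probe sets, among them several named below, were thus read on arrays whose top signals differed by group. Replicate 3 of the IGF1R-dnPI3K group stood apart: its mean correlation with the other arrays was 0.927, against 0.947 to 0.956 for the others. The 3' to 5' signal ratio of the pyruvate carboxylase control was 3.25 on that array, and 1.40 to 2.11 on the others. The 3' to 5' ratio of Gapdh was 0.843 to 0.873 in IGF1R-caPI3K, 0.844 to 0.943 in IGF1R-dnPI3K and 0.747 to 0.818 in IGF1R arrays. The ratio of the CreX control, which comes from a phage gene and not from the heart, was 1.74 to 1.89 in IGF1R-caPI3K, 1.79 to 1.83 in IGF1R-dnPI3K and 1.05 to 1.26 in IGF1R arrays. The median SD of the members' log2 values was 0.11 in IGF1R-caPI3K, 0.22 in IGF1R-dnPI3K and 0.13 in IGF1R mice. Igf1r itself had a signal of 1138 ± 182 in IGF1R-caPI3K, 1772 ± 178 in IGF1R-dnPI3K and 903 ± 72.3 in IGF1R mice (SD, n = 3 each), a difference of 0.97 ± 0.14 (adjusted p = 0.00827) between IGF1R-dnPI3K and IGF1R mice. The 2 probe sets of Pik3ca and that of Pik3r1 passed in no comparison, and a match between these probe sets and the transgenes could not be checked.

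Cell type markers also moved. The summed signal of 7 fibroblast and matrix genes was 31719 to 35447 in IGF1R-caPI3K, 21558 to 25302 in IGF1R-dnPI3K and 29427 to 32118 in IGF1R mice. Of their 12 tested probe sets, 7 were lower in IGF1R-dnPI3K than in IGF1R mice (58.3%, against 7.8% of all), and 2 lay above 0. Dcn, the brightest of this list, averaged 14007 ± 1430 in IGF1R-dnPI3K and 13154 ± 789 in IGF1R mice. Its difference was 0.09 ± 0.11 (adjusted p = 0.621). Col1a2 passed as lower on a probe set with -0.68 ± 0.15 (adjusted p = 0.0189). Its other tested probe set gave 0.14 ± 0.14 (adjusted p = 0.518). The sum of 6 macrophage genes was 5697 to 5949.6 in IGF1R-caPI3K, 3144 to 4686 in IGF1R-dnPI3K and 5058 to 5909 in IGF1R mice. That of 5 endothelial genes was 3926 to 4159.8 in IGF1R-caPI3K, 3940.2 to 4939 in IGF1R-dnPI3K and 5104 to 6032 in IGF1R mice. These genes also moved apart in IGF1R-dnPI3K against IGF1R mice. Kdr, with -1.16 ± 0.25 (adjusted p = 0.0185), and Pecam1, with -0.73 ± 0.21 (adjusted p = 0.0423), passed as lower. Vwf, with 0.63 ± 0.16 (adjusted p = 0.0281), passed as higher. The 6 cardiomyocyte genes measured summed to 105178 to 110154 in IGF1R-caPI3K, 118059 to 140210 in IGF1R-dnPI3K and 101830 to 110611 in IGF1R mice, but their members moved apart. Myh6, with 0.39 ± 0.11 (adjusted p = 0.0383), and Myl2, with 0.47 ± 0.12 (adjusted p = 0.0281), passed as higher in the IGF1R-dnPI3K group relative to IGF1R mice, but under quantile normalization these were -0.066 for Myh6 and 0.013 for Myl2. Ryr2, the calcium release channel, was lower in both comparisons with IGF1R mice, with -0.55 ± 0.11 (adjusted p = 0.017) in IGF1R-dnPI3K and -0.70 ± 0.11 (adjusted p = 0.0464) in IGF1R-caPI3K mice. The 5 skeletal muscle genes summed to 20355 to 22314 in IGF1R-caPI3K, 10467 to 16765 in IGF1R-dnPI3K and 18551 to 20131 in IGF1R mice. In this list Acta1 was lower in IGF1R-dnPI3K than in IGF1R mice. A probe set of Ckm was lower in IGF1R-caPI3K than in IGF1R mice, with -0.59 ± 0.10 (adjusted p = 0.0482). The other tested probe set of Ckm pointed the other way, with 0.79 ± 0.33 (adjusted p = 0.236). The 3 lymphocyte genes measured summed to 149 to 189 in IGF1R-caPI3K, 252 to 339 in IGF1R-dnPI3K and 363 to 442 in IGF1R mice, and Cd79a, a B cell gene, was lower in IGF1R-caPI3K than in IGF1R mice, with -1.83 ± 0.22 (adjusted p = 0.0178). The sums of smooth muscle and red blood cell genes were also higher on every IGF1R-dnPI3K array than on the IGF1R arrays, and those of adipocyte genes lower on every IGF1R-caPI3K array. The 3 atrial genes summed to at most 502 on any array. In RNA from whole ventricles, fewer cells of a type and less RNA per cell cannot be told apart. The part of the cell types, of the highest and median signals, of the control ratios and of the array that stood apart in the results below was not tested.

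In IGF1R-dnPI3K against IGF1R mice, 9 probe sets of 9 genes passed. Of these, 4 were higher, for the elongation factors Eef1a1 and Eef1d and the release factors Etf1 and Gspt1, and 5 were lower, for the initiation factors Eif1a, Eif3a, Eif3e, Eif4b and Eif5b. The differences ran from -0.99 for Eif3e to 0.75 for Eef1d. For Eif1a, Eif4b, Eif5b and Etf1 the call rests on 1 probe set, and others of the same gene lay near 0 or on the other side of it. Of all 38 tested probe sets of initiation factors 17 were above 0, and of the 10 of elongation and release factors, 5 of them for Etf1, 9 were. The share of all probe sets above 0 is not given here, so these counts cannot be set against the whole array. A difference between the steps was not tested. Initiation factors passed as higher under other settings: Eif3b with array weights, Eif6 with quantile normalization and with no filter, both with a common median, and Eif3b, Eif3l and the Eif4b probe set 100557_g_at without replicate 1 of the IGF1R-dnPI3K group. The 9 were 17.0% of the 53 tested members, against 13.5% of all 7898 probe sets tested (5.7% higher and 7.8% lower), so the members passed at a rate near that of the whole array. The median difference of the tested members was 0.01, against -0.09 over all probe sets tested. At an unadjusted p under 0.05 there were 22 members, 41.5%, against 32.2% of all. The groups did not overlap for 23 members, 43.4%, against 34.4% of all probe sets.

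**Figure D1:**
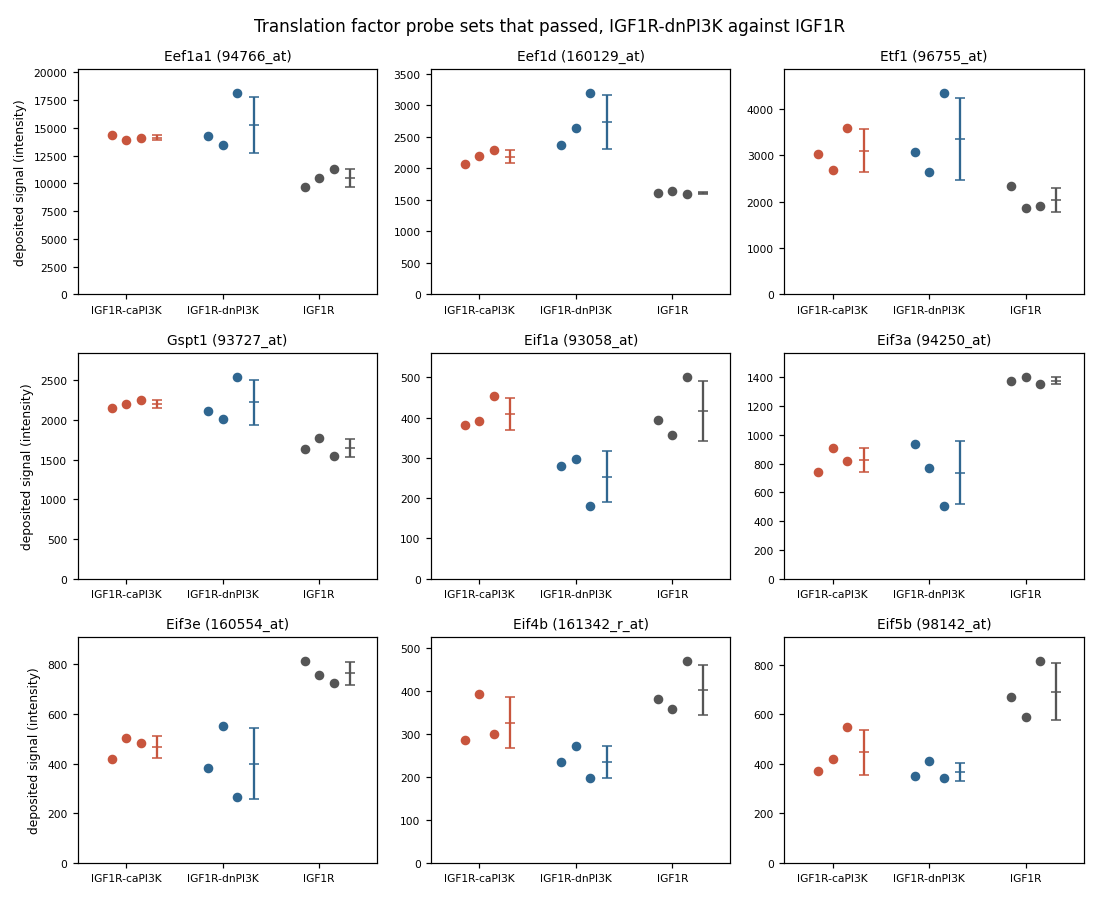
Deposited intensity (linear scale, starting at 0) of the 9 probe sets that passed in IGF1R-dnPI3K against IGF1R mice, with 1 point per mouse and, beside the points, the group mean ± SD (n = 3). For Eef1a1, Eef1d, Etf1 and Gspt1 all IGF1R-caPI3K and IGF1R-dnPI3K points lie above the IGF1R points, and for Eif3a, Eif3e and Eif5b they lie below; for Eif1a and Eif4b the IGF1R-caPI3K points overlap with those of IGF1R mice.

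The calls depended on single arrays. Without the IGF1R-dnPI3K array that stood apart, 5 of the 9 still passed (Eef1a1, Eef1d, Eif3a, Eif3e and Eif5b) and the other 4 did not, with 8.37% of all probe sets passing. Leaving out replicate 1 or 3 of the IGF1R group left only Eef1d, and leaving out its replicate 2 left Eef1d and Eif5b. With only the arrays of IGF1R-dnPI3K and IGF1R mice in the fit, 2 members passed, Eef1d and Eif5b, among 1.80% of all probe sets. The 9-array fit shares 1 estimate of error, while the members' median SD was 0.22 in IGF1R-dnPI3K, 0.11 in IGF1R-caPI3K and 0.13 in IGF1R mice. The fit of 2 groups also has fewer arrays, and the part of the spread was not tested. Without replicate 1 of the IGF1R-dnPI3K group, 19 members passed, 9 higher and 10 lower, among 23.7% of all probe sets, and 3 of the 9 higher were the initiation factor probe sets named above. The direction of the 9 differences was the same under every one of the 23 alternatives in which a probe set was tested. Several of these cannot change a difference between the 2 groups, such as another filter or variance, or leaving out an IGF1R-caPI3K array. The 9 were also picked for passing on these same arrays, so their shared direction is no independent check.

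**Figure D2:**
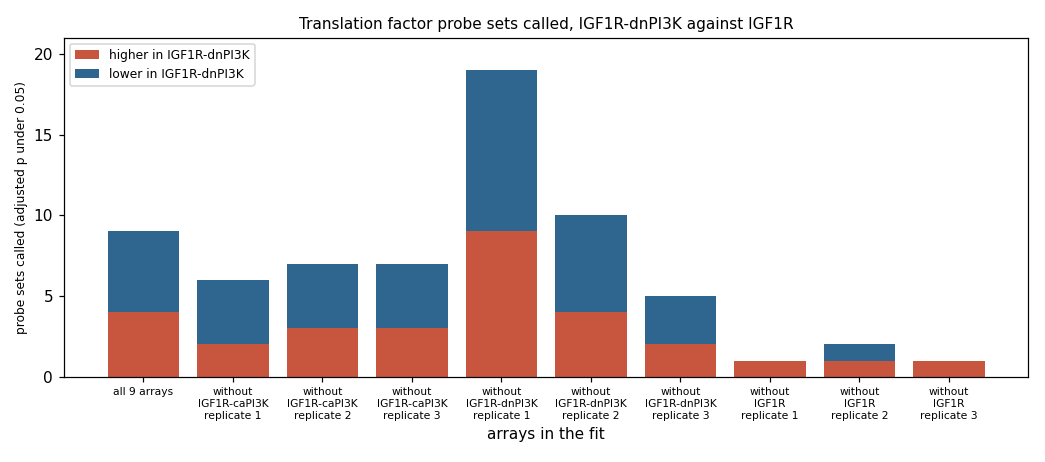
Number of translation factor probe sets with an adjusted p under 0.05 in IGF1R-dnPI3K against IGF1R mice, with all 9 arrays and with each array left out in turn; the lower part of each bar counts those higher and the upper part those lower in IGF1R-dnPI3K mice. The count is 9 with all arrays, 19 without IGF1R-dnPI3K replicate 1, and 1 or 2 without any 1 of the IGF1R arrays.

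In IGF1R-caPI3K against IGF1R mice, no member passed in limma, against 0.215% of all probe sets, and the lowest adjusted p was 0.103. At an unadjusted p under 0.05 there were 12 members, 22.6%, against 18.4% of all probe sets. The groups did not overlap for 22 members, 41.5% of those tested against 32.9% of all, with 14 members higher, 26.4% against 14% of all, and 8 lower, 15.1% against 18.8% of all. The 3 members with the lowest p in each direction were Gspt1, Eef1d and Eef1a1, above 0, and Eif3a, Eif5b and Eif3e, below 0. The count changed with 1 array of the third group, whose spread enters the shared estimate of error: without IGF1R-dnPI3K replicate 3, 7 members passed. Eef1a1, Eef1a2, Eef1d, Etf1 and Gspt1 were then higher and Eif3a and Eif3e lower, among 7.03% of all probe sets, and the size of these differences is the same in both fits. With only the arrays of IGF1R-caPI3K and IGF1R mice in the fit, 8 members passed, 6 higher and 2 lower, among 9.70% of all. Both comparisons use the same 3 IGF1R arrays, so the values of each are given side by side below and their likeness is not read as a result.

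In IGF1R-caPI3K against IGF1R-dnPI3K mice, no member passed in limma, against 1.24% of all probe sets. At an unadjusted p under 0.05 there were 11 members, 20.8%, against 15.4% of all, and the groups did not overlap for 13 members, 24.5% against 19.5%. Eif1a had the lowest adjusted p, 0.141, with a difference of 0.72 ± 0.21. It was followed above 0 by Eif4e with 0.67 ± 0.26 (adjusted p = 0.253) and the Tcea1 probe set 101527_at with 0.36 ± 0.14 (adjusted p = 0.258). Below 0 the lowest p-values were those of Eef1d, -0.31 ± 0.12 (adjusted p = 0.258), Eif3f, -0.68 ± 0.26 (adjusted p = 0.258), and Eif3d, -0.25 ± 0.11 (adjusted p = 0.31). No member passed in this comparison under any alternative tried.

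**Figure D3:**
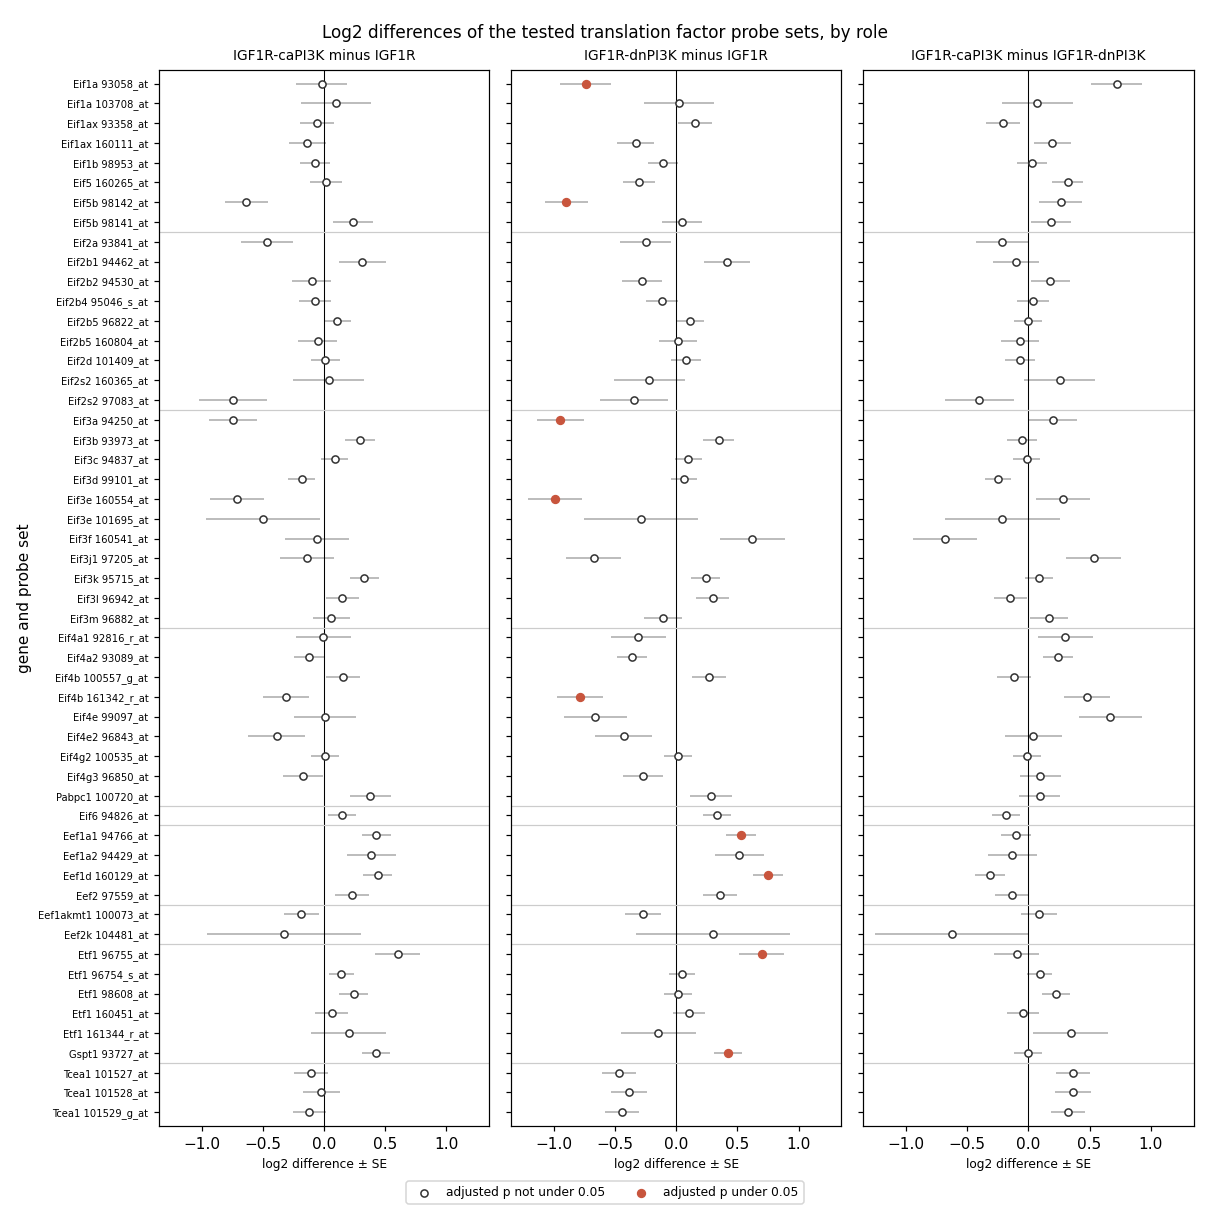
Log2 difference ± SE of the 53 tested probe sets in each comparison, ordered by role down the page (start codon and joining, eIF2 and eIF2B, eIF3, eIF4 and poly(A) binding, Eif6, elongation, enzymes, release, Tcea1), with filled points for an adjusted p under 0.05. The 9 filled points are all in the middle panel, IGF1R-dnPI3K minus IGF1R, with 4 in the elongation and release rows above 0 and 5 in the initiation rows below 0.

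For 4 of the genes that passed, the sequence around the start of the gene is shown, so that the promoters of factors that were higher (Eef1a1, Gspt1) and lower (Eif3a, Eif5b) can be read side by side. Each is the 300 bases of 250 before to 50 after the start, 5′ to 3′ on the strand of the gene, from RefSeq for GRCm38.p6: Eef1a1 at chr9:78481675-78481974 on the minus strand, Gspt1 at chr16:11254276-11254575 on the minus strand, Eif3a at chr19:60790644-60790943 on the minus strand and Eif5b at chr1:37997760-37998059 on the plus strand. Capitals mark the letters GGGCGG (a GC box) or CACGTG (an E-box) on either strand.
Eef1a1: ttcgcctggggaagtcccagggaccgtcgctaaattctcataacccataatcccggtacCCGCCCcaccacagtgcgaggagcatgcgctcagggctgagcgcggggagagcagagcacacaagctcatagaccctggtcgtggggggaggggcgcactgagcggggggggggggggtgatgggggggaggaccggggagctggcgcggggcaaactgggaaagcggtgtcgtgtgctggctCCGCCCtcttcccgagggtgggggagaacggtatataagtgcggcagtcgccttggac
Gspt1: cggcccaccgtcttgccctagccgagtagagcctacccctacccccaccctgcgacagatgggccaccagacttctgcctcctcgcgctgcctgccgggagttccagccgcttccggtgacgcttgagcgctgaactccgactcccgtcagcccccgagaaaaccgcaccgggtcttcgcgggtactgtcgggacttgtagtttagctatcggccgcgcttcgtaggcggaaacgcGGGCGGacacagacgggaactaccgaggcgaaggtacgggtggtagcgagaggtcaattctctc
Eif3a: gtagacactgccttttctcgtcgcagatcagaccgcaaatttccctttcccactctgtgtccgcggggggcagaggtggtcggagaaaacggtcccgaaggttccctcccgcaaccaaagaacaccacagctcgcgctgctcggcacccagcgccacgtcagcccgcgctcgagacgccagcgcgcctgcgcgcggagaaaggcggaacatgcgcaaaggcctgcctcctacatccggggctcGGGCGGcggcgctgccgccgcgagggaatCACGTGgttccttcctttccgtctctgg
Eif5b: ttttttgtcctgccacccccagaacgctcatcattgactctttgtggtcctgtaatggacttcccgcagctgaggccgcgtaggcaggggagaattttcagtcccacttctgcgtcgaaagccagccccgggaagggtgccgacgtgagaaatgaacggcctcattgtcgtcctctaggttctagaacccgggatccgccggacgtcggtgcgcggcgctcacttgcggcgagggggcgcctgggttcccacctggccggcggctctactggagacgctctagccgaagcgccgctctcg
The Eef1a1 window held the GC box at 2 places in its reverse form, CCGCCC, starting 191 and 8 bases before the gene's start. That of Gspt1 held it 14 bases before, and that of Eif3a 7 bases before, with a CACGTG starting 23 bases after the start. The Eif5b window held neither. RefSeq windows matched 35 of the 45 member genes, with 49 windows. The GC box was in 34 of these, 69.4%, against 35.7% of all 32851 windows in the table, and CACGTG in 12, 24.5%, against 7.15%. TATAAA, searched on both strands, was in 3, 6.12%, against 13.6%. These are descriptions of letters and bear on no factor's binding.

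All 4 elongation factors tested had positive differences in both comparisons with IGF1R mice. Of these, 2 passed in IGF1R-dnPI3K mice, 50%, against 5.7% of all probe sets that passed as higher. The median difference over all probe sets was -0.09 in IGF1R-dnPI3K and -0.04 in IGF1R-caPI3K against IGF1R mice. Eef1a1 encodes the form of elongation factor 1A, the GTPase that brings aminoacyl-tRNA to the ribosome, that most tissues use. It had signals of 14362, 13927 and 14064 in the IGF1R-caPI3K mice, 14239.6, 13431 and 18158 in the IGF1R-dnPI3K mice and 9723, 10521 and 11325 in the IGF1R mice. Every array with a PI3K transgene lay above the 3 IGF1R arrays. The difference was 0.53 ± 0.12 (adjusted p = 0.0223) in IGF1R-dnPI3K and 0.43 ± 0.12 (adjusted p = 0.115) in IGF1R-caPI3K against IGF1R mice. Under quantile normalization the first was 0.15 (adjusted p = 0.247) and the second 0.27 (adjusted p = 0.111).

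Eef1d encodes a subunit of the exchange factor that reloads elongation factor 1A with GTP. It had signals of 2075, 2189 and 2293 in the IGF1R-caPI3K mice, 2363, 2636 and 3196 in the IGF1R-dnPI3K mice and 1605, 1634 and 1598 in the IGF1R mice. The 3 groups did not overlap, and the IGF1R values lay closest together. Its difference was 0.75 ± 0.12 (adjusted p = 0.00915) in IGF1R-dnPI3K and 0.44 ± 0.12 (adjusted p = 0.109) in IGF1R-caPI3K against IGF1R mice, and -0.31 ± 0.12 (adjusted p = 0.258) between IGF1R-caPI3K and IGF1R-dnPI3K mice. Without IGF1R-dnPI3K replicate 3 it was 0.63 (adjusted p = 0.00851) in IGF1R-dnPI3K and 0.44 (adjusted p = 0.0191) in IGF1R-caPI3K mice. Of the members it passed most often, in 22 of 23 alternatives for IGF1R-dnPI3K against IGF1R mice.

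Eef1a2 encodes the form of elongation factor 1A that takes over in adult heart and skeletal muscle. It had signals of 19786, 21256 and 22328 in the IGF1R-caPI3K mice, 18445, 19489 and 34399 in the IGF1R-dnPI3K mice and 18105, 14935 and 15608 in the IGF1R mice. The groups with a PI3K transgene did not overlap with IGF1R mice, but IGF1R-dnPI3K replicate 3 was far above the other arrays. The differences were 0.52 ± 0.20 (adjusted p = 0.106) in IGF1R-dnPI3K and 0.38 ± 0.20 (adjusted p = 0.332) in IGF1R-caPI3K against IGF1R mice. Eef2 encodes the factor that moves the ribosome along the messenger, and had signals of 6589.8, 7221 and 7491 in the IGF1R-caPI3K mice, 6783, 7042 and 9894 in the IGF1R-dnPI3K mice and 6252, 5805 and 6151 in the IGF1R mice. Here too the same array was the highest, and both groups lay above the IGF1R mice. The differences were 0.36 ± 0.14 (adjusted p = 0.103) in IGF1R-dnPI3K and 0.23 ± 0.14 (adjusted p = 0.419) in IGF1R-caPI3K mice. Without that array the IGF1R-dnPI3K difference was 0.23 (adjusted p = 0.141) for Eef1a2 and 0.19 (adjusted p = 0.179) for Eef2. With quantile normalization it was 0.06 (adjusted p = 0.718) for Eef1a2 and 0.13 (adjusted p = 0.405) for Eef2, and the IGF1R-caPI3K difference was 0.15 (adjusted p = 0.392) for Eef1a2 and 0.12 (adjusted p = 0.53) for Eef2. Eef2k and Eef1akmt1 passed in no comparison, and the Eef2k signal ran between 36.7 and 207 with a wide spread within the IGF1R-caPI3K and IGF1R-dnPI3K groups.

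The release factors were read by 6 probe sets. Gspt1 encodes eRF3, the GTPase that works with eRF1 to free the finished chain. It had signals of 2154, 2203 and 2253 in the IGF1R-caPI3K mice, 2114, 2010.5 and 2539.8 in the IGF1R-dnPI3K mice and 1630.5, 1769.9 and 1544 in the IGF1R mice. Both groups with a PI3K transgene lay above IGF1R mice. The difference was 0.43 ± 0.11 (adjusted p = 0.0368) in IGF1R-dnPI3K and 0.42 ± 0.11 (adjusted p = 0.107) in IGF1R-caPI3K against IGF1R mice. With IGF1R-dnPI3K replicate 3 left out, the values were 0.32 (adjusted p = 0.0693) in IGF1R-dnPI3K and 0.42 (adjusted p = 0.0229) in IGF1R-caPI3K mice.

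Etf1 encodes eRF1, which recognises the stop codons. Of its 5 probe sets only 96755_at passed, with signals of 3017, 2673 and 3586 in the IGF1R-caPI3K mice, 3076, 2647 and 4341 in the IGF1R-dnPI3K mice and 2331, 1856 and 1908 in the IGF1R mice. Every array with a PI3K transgene lay above the IGF1R arrays, and the difference was 0.70 ± 0.18 (adjusted p = 0.0336) in IGF1R-dnPI3K and 0.60 ± 0.18 (adjusted p = 0.13) in IGF1R-caPI3K against IGF1R mice. The first was 0.50 (adjusted p = 0.0689) with IGF1R-dnPI3K replicate 3 left out. The other 4 probe sets of Etf1 gave 0.05, 0.01, 0.11 and -0.15 in IGF1R-dnPI3K against IGF1R mice, and none of them passed. In IGF1R-caPI3K mice these 4 gave 0.14, 0.24, 0.06 and 0.20. The call for Etf1 therefore rests on 1 of its 5 probe sets.

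Among the factors that act at the start codon and in subunit joining, 2 of 8 tested probe sets passed in IGF1R-dnPI3K against IGF1R mice, both lower. That is 25% of few probe sets, against 7.8% of all that passed as lower. Eif5b encodes the GTPase that joins the large subunit. Its probe set 98142_at had signals of 372, 421 and 547 in the IGF1R-caPI3K mice, 353, 409.9 and 343 in the IGF1R-dnPI3K mice and 669.5, 589 and 814 in the IGF1R mice. No array with a PI3K transgene reached the lowest IGF1R value. The difference was -0.90 ± 0.18 (adjusted p = 0.0162) in IGF1R-dnPI3K and -0.64 ± 0.18 (adjusted p = 0.11) in IGF1R-caPI3K against IGF1R mice. The first was -0.85 (adjusted p = 0.0301) when IGF1R-dnPI3K replicate 3 was left out. The other probe set of Eif5b, 98141_at, gave 0.05 ± 0.16 (adjusted p = 0.855) in IGF1R-dnPI3K and 0.24 ± 0.16 (adjusted p = 0.472) in IGF1R-caPI3K mice, so the gene's probe sets differ.

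Eif1a encodes a form of eIF1A, which helps the small subunit scan for the start codon. Its probe set 93058_at had signals of 381, 392 and 454 in the IGF1R-caPI3K mice, 280.0, 298 and 181 in the IGF1R-dnPI3K mice and 394, 357 and 501 in the IGF1R mice. All 3 IGF1R-dnPI3K arrays lay below the other 6. The difference was -0.74 ± 0.21 (adjusted p = 0.0422) in IGF1R-dnPI3K and -0.02 ± 0.21 (adjusted p = 0.97) in IGF1R-caPI3K against IGF1R mice. Without IGF1R-dnPI3K replicate 3 the first was -0.52 (adjusted p = 0.0933), and it passed in 10 of 23 alternatives. The other probe set, 103708_at, gave 0.02 in IGF1R-dnPI3K against IGF1R mice. Eif5, which encodes the factor that triggers GTP hydrolysis on eIF2, gave -0.31 ± 0.13 (adjusted p = 0.131) in IGF1R-dnPI3K and 0.01 ± 0.13 (adjusted p = 0.964) in IGF1R-caPI3K mice. The 2 probe sets of Eif1ax, of 0.15 and -0.33, and that of Eif1b, of -0.11, did not pass in IGF1R-dnPI3K against IGF1R mice either.

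Of eIF3, the large scaffold on the small subunit, 2 of 11 probe sets passed, both lower in IGF1R-dnPI3K than in IGF1R mice (18.2%, against 7.8% of all). Eif3a encodes its largest subunit. It had signals of 743, 912 and 817 in the IGF1R-caPI3K mice, 934, 773 and 505 in the IGF1R-dnPI3K mice and 1372, 1402.8 and 1355 in the IGF1R mice. The IGF1R arrays were close to each other and clear of all 6 others. The difference was -0.95 ± 0.19 (adjusted p = 0.0174) in IGF1R-dnPI3K and -0.75 ± 0.19 (adjusted p = 0.103) in IGF1R-caPI3K against IGF1R mice. Without IGF1R-dnPI3K replicate 3, the lowest array, these were -0.70 (adjusted p = 0.015) in IGF1R-dnPI3K and -0.75 (adjusted p = 0.0103) in IGF1R-caPI3K mice.

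Eif3e encodes another eIF3 subunit, and its probe set 160554_at had signals of 418, 503 and 481 in the IGF1R-caPI3K mice, 383, 550.2 and 267 in the IGF1R-dnPI3K mice and 812, 755 and 723 in the IGF1R mice. The IGF1R arrays again lay above all others. The difference was -0.99 ± 0.22 (adjusted p = 0.0204) in IGF1R-dnPI3K and -0.71 ± 0.22 (adjusted p = 0.136) in IGF1R-caPI3K against IGF1R mice. Without IGF1R-dnPI3K replicate 3 the values were -0.73 (adjusted p = 0.0302) in IGF1R-dnPI3K and -0.71 (adjusted p = 0.0255) in IGF1R-caPI3K mice. The second probe set of the gene, 101695_at, was dim and gave -0.29 ± 0.47 (adjusted p = 0.704) in IGF1R-dnPI3K mice.

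The remaining eIF3 subunits did not pass and lay on both sides of 0. Eif3j1, whose product sits at the edge of the complex near the messenger channel, had signals of 2229, 2205 and 2143 in the IGF1R-caPI3K mice, 1913, 1894 and 956 in the IGF1R-dnPI3K mice and 2242, 2599 and 2422 in the IGF1R mice. Its IGF1R-dnPI3K values were all below the others, replicate 3 by most, with a difference of -0.68 ± 0.22 (adjusted p = 0.0668) in IGF1R-dnPI3K and -0.14 ± 0.22 (adjusted p = 0.774) in IGF1R-caPI3K against IGF1R mice. Eif3f gave 0.62 ± 0.26 (adjusted p = 0.131) in IGF1R-dnPI3K and -0.06 ± 0.26 (adjusted p = 0.931) in IGF1R-caPI3K mice. The scaffold subunit gene Eif3b gave 0.35 ± 0.12 (adjusted p = 0.083) in IGF1R-dnPI3K and 0.29 ± 0.12 (adjusted p = 0.249) in IGF1R-caPI3K mice, with neither group overlapping IGF1R mice. Eif3c, Eif3d, Eif3k, Eif3l and Eif3m lay between -0.11 and 0.30 in IGF1R-dnPI3K, and between -0.18 and 0.33 in IGF1R-caPI3K mice.

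Of the eIF4 proteins and the poly(A) binding protein, 1 of 9 tested probe sets passed, lower in IGF1R-dnPI3K mice (11.1%, against 7.8% of all). Eif4b encodes a cofactor of the helicase eIF4A and is a known phosphorylation target of the kinases below mTORC1. Its probe set 161342_r_at had signals of 286, 395 and 299 in the IGF1R-caPI3K mice, 234, 272 and 197 in the IGF1R-dnPI3K mice and 382, 358 and 470.3 in the IGF1R mice. The IGF1R-dnPI3K arrays were all below the other 6, and IGF1R-caPI3K overlapped with IGF1R mice. The difference was -0.79 ± 0.19 (adjusted p = 0.0259) in IGF1R-dnPI3K and -0.31 ± 0.19 (adjusted p = 0.409) in IGF1R-caPI3K against IGF1R mice. Leaving out IGF1R-dnPI3K replicate 3 gave -0.67 (adjusted p = 0.0607) for the first. The probe set 100557_g_at of the same gene pointed the other way, with 0.27 ± 0.14 (adjusted p = 0.207) in IGF1R-dnPI3K mice and 1701, 2079.7 and 2517 on their arrays, against 1734, 1773 and 1658 in IGF1R mice. The tested probe sets of Eif4b thus had no single direction here. Both IDs carry a suffix, and whether their probes differ in target was not tested.

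**Figure D4:**
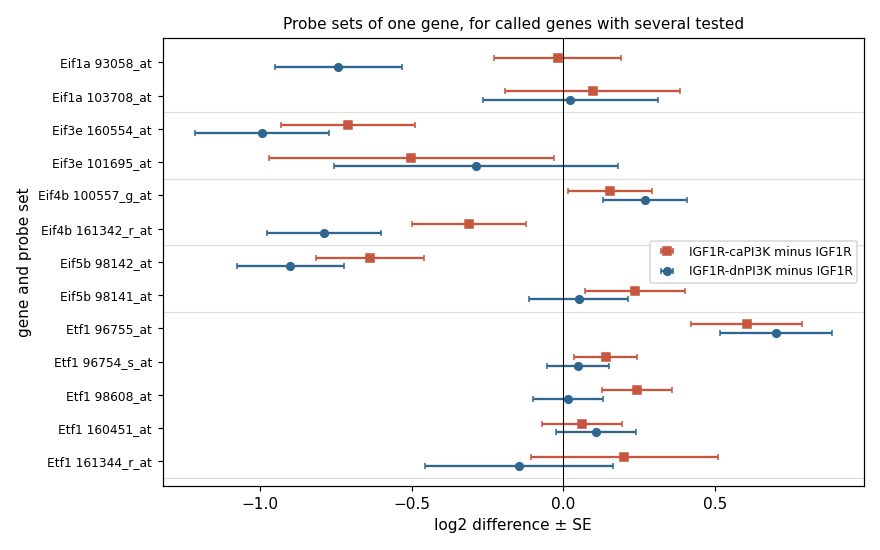
Log2 difference ± SE of every tested probe set of the 5 genes that passed on 1 probe set and have others, with squares for IGF1R-caPI3K minus IGF1R and circles for IGF1R-dnPI3K minus IGF1R. For Eif1a, Eif5b and Etf1 the other probe sets lie near 0 in IGF1R-dnPI3K mice, between -0.15 and 0.11, and those of Eif4b lie on both sides of 0.

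Eif4e encodes the protein that binds the cap, and had signals of 142, 209 and 211 in the IGF1R-caPI3K mice, 107, 134 and 109 in the IGF1R-dnPI3K mice and 137, 216 and 209.9 in the IGF1R mice. The IGF1R-dnPI3K values were all below the lowest of IGF1R mice, and the difference was -0.66 ± 0.26 (adjusted p = 0.104) in IGF1R-dnPI3K and 0.0073 ± 0.26 (adjusted p = 0.991) in IGF1R-caPI3K against IGF1R mice. Eif4a2, a form of the helicase, gave -0.36 ± 0.12 (adjusted p = 0.0691) in IGF1R-dnPI3K and -0.12 ± 0.12 (adjusted p = 0.631) in IGF1R-caPI3K mice, and passed in the first under quantile normalization. Eif4a1 gave -0.31 ± 0.22 (adjusted p = 0.366) and Eif4g2, a relative of the eIF4G scaffold, gave 0.01 ± 0.12 (adjusted p = 0.943) in IGF1R-dnPI3K mice. Pabpc1, which binds the poly(A) tail, had signals of 3966, 3884 and 3082 in the IGF1R-caPI3K mice, 3754, 3194 and 3275 in the IGF1R-dnPI3K mice and 2133, 3178 and 3206 in the IGF1R mice. The values of IGF1R mice overlapped with those of both other groups, and IGF1R replicate 1 was the lowest array. The difference was 0.28 ± 0.17 (adjusted p = 0.27) in IGF1R-dnPI3K and 0.38 ± 0.17 (adjusted p = 0.267) in IGF1R-caPI3K mice. Eif4g1, Eif1 and Eif2s1 have no member probe set.

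None of the 9 tested probe sets of eIF2, its exchange factor eIF2B, and Eif2a and Eif2d, grouped here by symbol alone, passed in any comparison. In IGF1R-dnPI3K against IGF1R mice they ran between -0.34 for the Eif2s2 probe set 97083_at and 0.41 for Eif2b1, and the groups overlapped for 8 of 9. In IGF1R-caPI3K mice the range was -0.74 for the same Eif2s2 probe set to 0.31 for Eif2b1. Eif2b4 and both probe sets of Eif2b5 lay within -0.11 and 0.11 in IGF1R-dnPI3K mice. Eif2b5 encodes the catalytic subunit of eIF2B, a target of the kinase GSK3 downstream of Akt.

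Eif6 encodes the factor that keeps the large subunit from joining too early. It had signals of 535, 566 and 540.1 in the IGF1R-caPI3K mice, 619, 584 and 661 in the IGF1R-dnPI3K mice and 474, 521 and 486 in the IGF1R mice. The 3 groups did not overlap, and the differences were 0.33 ± 0.12 (adjusted p = 0.0779) in IGF1R-dnPI3K and 0.15 ± 0.12 (adjusted p = 0.525) in IGF1R-caPI3K against IGF1R mice. It passed in IGF1R-dnPI3K mice in 3 of 23 alternatives, which were quantile normalization, a common median and no filter on dim probe sets. Tcea1, the transcription factor that the rule took in, was read by 3 probe sets. That with the lowest p, 101527_at, had signals of 1144, 1084 and 1128 in the IGF1R-caPI3K mice, 1019.8, 904 and 713 in the IGF1R-dnPI3K mice and 1267, 1092 and 1259 in the IGF1R mice. All 3 IGF1R-dnPI3K arrays lay below the other 6 on each Tcea1 probe set. The differences between IGF1R-dnPI3K and IGF1R mice were -0.47 ± 0.14 (adjusted p = 0.0503) for 101527_at, -0.44 ± 0.14 (adjusted p = 0.0567) for 101529_g_at and -0.39 ± 0.15 (adjusted p = 0.102) for 101528_at, and with IGF1R-dnPI3K replicate 3 left out that of 101527_at was -0.33 (adjusted p = 0.111). The probe set 101527_at passed in 8 of 23 alternatives, with an adjusted p of 0.0141 to 0.613 over them.

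Of the 9 genes read by more than 1 tested probe set, 5 had probe sets on both sides of 0 in IGF1R-dnPI3K against IGF1R mice and 5 in IGF1R-caPI3K against IGF1R mice. Of the genes that passed, Eef1a1, Eef1d, Eif3a and Gspt1 were read by 1 probe set each, and Eif1a, Eif3e, Eif4b, Eif5b and Etf1 each had at least 1 tested probe set that did not pass. The number series in the titles gives 1 more split: the IGF1R-dnPI3K arrays are 1 of series 10 and 2 of series 31, which no other group has, and the other groups hold series 10 and 14. The meaning of the series was not given in the sources used here. With the series as a block no member passed in IGF1R-dnPI3K against IGF1R mice, and Eef1d gave 0.59 (adjusted p = 0.28) and Eif5b -0.96 (adjusted p = 0.308); that difference then rests on replicate 1 of the IGF1R-dnPI3K group. With the series as a block in a fit of the IGF1R-caPI3K and IGF1R arrays alone, which hold 1 array of series 10 and 2 of series 14 each, 7 members passed, 5 higher and 2 lower, among 8.95% of all probe sets. Within series 14, with 2 IGF1R-caPI3K and 2 IGF1R arrays, no member passed and Eef1a1 gave 0.47 (adjusted p = 0.0754) and Eif3a -0.68 (adjusted p = 0.0855).

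Other genes of translation were read from fixed lists. Of 35 tested probe sets of cytosolic ribosomal proteins, 12 were higher (34.3%, against 5.7% of all probe sets) in IGF1R-dnPI3K than in IGF1R mice. Another 2 were lower (5.71%, against 7.8%), and the median was 0.32 against -0.09 over all. Of the 12 higher, Rpl10a, Rplp0, Rps28, Rps3a1 and Rps7 did not pass under quantile normalization, from -0.010 for Rps3a1 to 0.36 for Rps28. The others still passed, from 0.27 for Rps18 to 0.48 for Rpsa. Without IGF1R-dnPI3K replicate 3, Rpl10a (adjusted p = 0.0676) and Rps7 (adjusted p = 0.0983) did not pass. The 12 passed in 10 to 19 of the alternatives in which each was tested. Rpl19 averaged 8789 ± 445 in IGF1R-caPI3K, 11890.2 ± 3017 in IGF1R-dnPI3K and 6799 ± 603 in IGF1R mice (SD, n = 3 each), a difference of 0.78 ± 0.16 (adjusted p = 0.0162). Rpl10a passed in both directions on different probe sets, with 0.41 ± 0.11 and -0.87 ± 0.23, and Rpl13a was the other that was lower. Among 22 tested probe sets of regulators, Rps6kb2, which encodes an S6 kinase, and Gsk3a, which encodes a GSK3 kinase, were higher (9.09%, against 5.7% of all) and none was lower. Rps6kb2 averaged 275 ± 34.5 in IGF1R-caPI3K, 395 ± 89.8 in IGF1R-dnPI3K and 92.3 ± 44.6 in IGF1R mice, the last near the highest Y-linked signal, and the difference was 2.18 ± 0.31 (adjusted p = 0.00827) in IGF1R-dnPI3K and 1.68 ± 0.31 (adjusted p = 0.0535) in IGF1R-caPI3K against IGF1R mice.

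Of 22 tested probe sets of aminoacyl-tRNA synthetases, which load amino acids onto transfer RNA, Lars was higher and Eprs lower in IGF1R-dnPI3K mice. That is 4.55% in each direction, against 5.7% higher and 7.8% lower of all probe sets. Eprs averaged 432 ± 20.4 in IGF1R-caPI3K, 444 ± 101 in IGF1R-dnPI3K and 799 ± 40.8 in IGF1R mice, with -0.87 ± 0.17 (adjusted p = 0.0159) in IGF1R-dnPI3K and -0.89 ± 0.17 (adjusted p = 0.0535) in IGF1R-caPI3K against IGF1R mice. Of 5 tested probe sets of mitochondrial translation factors, Mtif2, a mitochondrial initiation factor, was the 1 that passed (20%, against 7.8% lower of all). It was lower in IGF1R-dnPI3K mice, with -0.57 ± 0.11 (adjusted p = 0.0162). It gave -0.57 ± 0.11 (adjusted p = 0.0562) in IGF1R-caPI3K mice. No probe set of these lists passed in IGF1R-caPI3K against IGF1R mice or against IGF1R-dnPI3K mice.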

How the data were processed

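Each of the 9 arrays is 1 sample, grouped by its title. The authors deposited linear intensity values for 12488 probe sets, 66 of them controls. Per the deposited values every array had been scaled to a 2% trimmed mean near 500. The algorithm and any detection calls were not given in the sources used here. With 3 arrays a group, their number sets the precision. The platform annotation gave 1 symbol to 10833 probe sets, several to 396 and none to 1193.

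Values under 32.4, the 20th percentile of all positive ones, were set to it before log2 was taken. Probe sets over the 40th percentile on 3 or more arrays were tested, 7898 in all, in 1 limma 3.58.1 fit of all arrays (R 4.3.3, eBayes with trend), with Benjamini-Hochberg adjustment over those 7898. Tested on simulated data with 200 changed probe sets in IGF1R-dnPI3K minus IGF1R, it recovered 13.4% of log2 changes of 0.5, 71.6% of 1 and 86.4% of 2, with 2.56% false calls. The simulation gave all groups 1 spread per probe set. In the data 13.5% of probe sets passed and the spread was larger in IGF1R-dnPI3K mice, so the recovery there may differ. No pair of arrays held the same values.

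Named members were those that passed, the 3 with the lowest p per direction where none did, and a fixed set of initiation, elongation and release factors. All probe sets of a gene were given where they disagreed. Members, gene lists and tests were chosen with earlier results of these data known. The closing section lists the alternatives.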

Additional observations from a re-analysis of the deposited data

How the results depend on the processing

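In IGF1R-dnPI3K against IGF1R mice, 9 members passed, and the count was 3 with no filter on dim probe sets, 5 with a variance that does not follow the mean, 0 with the number series of the titles as a block and 2 with only the arrays of both groups. Leaving out each array in turn gave 1 to 19. The share of all tested probe sets that passed was 3.12% with no filter, 8.32% with that variance, 0.0633% with the block and 1.80% with both groups alone, against 13.5%. Among the other alternatives (quantile normalization, a common median, other floors, log2(value + 32), stricter filters, robust variance, array weights and no suffixed probe sets) the count was 9 to 12. Scaling to a common median moved the median of all probe sets by 0.17, to 0.08, and gave 6 higher and 4 lower where the deposited scale gave 4 higher and 5 lower; 8 of the 9 were shared, Eif1a was lost and Eif3b and Eif6 were added. Quantile normalization shared 7 of 9, without Eef1a1 and Eif1a and with Eif4a2 and Eif6. In IGF1R-caPI3K against IGF1R mice the count was 0, but 8 with array weights (9.84% of all) and 8 with only the arrays of both groups (9.70% of all), and 0 to 7 with each array left out. In IGF1R-caPI3K against IGF1R-dnPI3K mice it was 0 under every alternative run. The cause of these shifts was not tested, except that the fit of 2 groups drops the third group's spread and the block leaves fewer arrays to compare. The 9 members that passed kept their direction in every alternative in which they were tested, though several alternatives cannot change a log2 difference. Of 45 passing results of other probe sets named or counted (genes of translation, cell type markers and Igf1r), 43 did; under quantile normalization Myh6 was -0.066 (adjusted p = 0.566) and Rps3a1 -0.010 (adjusted p = 0.947) in IGF1R-dnPI3K against IGF1R mice. No paired analysis was possible by replicate number because the titles give groups none in common. IGF1R-caPI3K and IGF1R mice are matched for number series, and that series as a block with both groups alone, chosen after seeing the data, gave 7 members (8.95% of all). At 3 arrays a group, changes of 0.5 on the log2 scale were recovered in 13.4% of simulated cases. That simulation changed 200 probe sets and gave all groups 1 spread, so recovery in the data may differ.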
